A study of Homo sapiens with 24 samples.

Results

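The histone genes of the human B-cell precursor leukaemia line Nalm6 were examined in 24 RNA-seq libraries. The set holds the transcripts that could be joined, by RefSeq accession, to a symbol in the deposited results beginning with HIST1H, HIST2H, HIST3H, HIST4H, H2AF, H3F3 or H1F. It came to 60 transcripts of 60 genes among the 64519 transcripts of the count table, and histone transcripts with no such symbol are outside it. By symbol, 50 of them were classed as replication-type histones (44 HIST1 and 6 HIST2 genes) and 10 as variant histones. The classes follow the symbol alone and so include non-coding records. These are H1FX-AS1, antisense to the H1FX gene, among the variants, and HIST2H2BA and HIST2H2BC among the replication-type members. All 60 were among the 10167 transcripts with more than 1 CPM (counts scaled to a library of 1000000 counts) in at least 2 libraries, because the symbols were given only for transcripts that had passed a filter of this kind. The cells carried lentiviral short hairpin RNAs against G9a (shG9a), GLP (shGLP) or HP1γ (shHP1γ), or a non-specific hairpin (shNS), as puromycin-selected populations rather than clones. Each of the 4 populations was given 100 nM of the synthetic glucocorticoid dexamethasone (dex) or the ethanol vehicle (Eth) for 8 h, which makes 8 groups of 3 biological replicates. The replicates of a condition were done on different days, and same-numbered libraries were treated as pairs.

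Histones package DNA into nucleosomes built from H2A, H2B, H3 and H4, and the linker histone H1 binds where DNA enters and leaves the nucleosome. Replication-type histone genes lie in clusters, have no introns and are expressed mainly in S phase, and their mRNAs normally end in a conserved stem-loop bound by SLBP instead of a poly(A) tail. Variant histones, such as H2A.Z (H2AFZ, H2AFV), H2A.X (H2AFX), macroH2A (H2AFY), H3.3 (H3F3A, H3F3B) and the linker variants H1.0 (H1F0) and H1.X (H1FX), are made throughout the cell cycle, mostly from polyadenylated mRNAs. G9a and GLP are methyltransferases that act on histone H3 lysine 9, and HP1γ is a chromatin protein that binds the methylated form, so the depleted proteins act on histones, while the values here are levels of histone mRNA.

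The stem-loop is shown because it separates the classes at the level of sequence. A core of 16 bases was searched, with the loop TNTN between arms of 6 bases (GGNNNT and ANNNCC) that had to pair perfectly, on the sense strand in the 150 bases after the stop codon, in GRCh37 with GENCODE release 44 mapped to that build. Of the 60 members, 56 were matched. The core was present in 43 of the 45 replication-type members with a coding transcript and in 1 of the 9 such variant members, H2AFX, against 0.339% of all 19758 protein-coding genes searched. It began 23 to 63 bases after the stop codon. The version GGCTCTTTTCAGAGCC was shared by 26 members, while the H4 genes matched all began with GGCCC. In the sequences below, printed on the sense strand of GRCh37, capitals mark the stem-loop. They come from the linker histone HIST1H1B (chr6:27834570-27834595, minus strand), HIST1H2BK (chr6:27114140-27114165, minus), HIST1H3B (chr6:26031820-26031845, minus), HIST1H4C (chr6:26104540-26104565, plus) and the variant H2AFX (chr11:118965603-118965628, minus).
HIST1H1B: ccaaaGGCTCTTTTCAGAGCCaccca
HIST1H2BK: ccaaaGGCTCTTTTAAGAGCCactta
HIST1H3B: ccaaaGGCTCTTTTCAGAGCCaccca
HIST1H4C: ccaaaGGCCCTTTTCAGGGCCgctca
H2AFX: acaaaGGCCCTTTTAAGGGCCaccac

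The promoters also differed by family. Windows of 300 bases, from 250 before to 50 after the transcription start (RefSeq, GRCh38.p14), were available for 50 members and were searched on either strand for ATTTGCAT (the octamer bound by POU-family factors), CCAAT and TATAAA. The octamer was in 10 of 13 replication-type H2B promoters and in 9 of 11 of H2A, in 1 of 8 of H3, and in 0 of 4 of H1 and 0 of 7 of H4, against 1.77% of all 35116 promoters. CCAAT was in 38 of 43 replication-type promoters and in 34.6% of all promoters. TATAAA was in 30 of these 43 and in 4 of 7 variant promoters, against 11.5% of all. A match describes letters only. Shown are the 250 bases before the start of HIST1H2BF, the replication-type gene that differed between shG9a and both other dex-treated groups it was tested against (below), and of H2AFZ, the most abundant member. Capitals mark matches, which in HIST1H2BF (chr6:26199266-26199515, plus strand) are CCAAT or its reverse complement starting 159, 141 and 76 bases before the start and the octamer at 111, and in H2AFZ (chr4:99950276-99950525, minus strand) are CCAAT or its reverse complement at 182, 125 and 80 and TATAAA at 31.
HIST1H2BF: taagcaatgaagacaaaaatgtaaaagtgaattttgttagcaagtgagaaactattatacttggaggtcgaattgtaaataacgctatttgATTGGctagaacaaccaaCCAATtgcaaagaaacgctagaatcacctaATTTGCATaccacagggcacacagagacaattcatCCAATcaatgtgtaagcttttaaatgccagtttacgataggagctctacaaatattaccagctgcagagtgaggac
H2AFZ: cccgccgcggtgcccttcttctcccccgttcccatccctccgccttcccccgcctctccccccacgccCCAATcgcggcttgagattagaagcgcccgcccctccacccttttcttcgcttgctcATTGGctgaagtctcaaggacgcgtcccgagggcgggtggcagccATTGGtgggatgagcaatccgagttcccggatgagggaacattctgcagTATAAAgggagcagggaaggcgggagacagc

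The libraries held 9289533 to 14387770 counts. In the check of the hairpins, EHMT1 (GLP) was lower in shGLP than in shNS cells in 6 of 6 same-numbered pairs, at 2.59 ± 0.605 against 3.69 ± 0.625 CPM (SD, n = 6), and the CBX3 (HP1γ) transcript NM_016587 was lower in shHP1γ cells in 6 of 6, at 2.62 ± 0.598 against 3.84 ± 0.428 CPM. The other CBX3 transcript measured, NM_007276, was at 2.75 ± 0.280 against 3.23 ± 0.420 CPM and lower in 4 of 6. G9a mRNA was not analysed here. Of the B-cell precursor markers, RAG1 stood at 1072 to 2816 CPM and IGLL1 at 25.3 to 83.0 CPM, while CD79B and DNTT were listed at 0 and PAX5 was near 0 in this table, which lists many genes with several RefSeq isoforms at or near 0. The same holds for some histones. A further 44 histone transcripts had no symbol in the deposited results and were not reached by the rule. Of these, 26 were at 0 in every library and 41 averaged under 3 counts. They include H3F3A, H2AFJ and H2AFY2, each at no more than 1 count in any library, and the identical copies HIST2H4A and HIST2H4B, HIST2H3A and HIST2H3C, and HIST2H2AA3 and HIST2H2AA4, all listed at 0. Only HIST2H3PS2, at 17.5 counts on average, passed the filter outside the set.

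Variant histones made up nearly all of the histone signal. Their summed level was 4033 to 5305 CPM per library, and that of the 50 replication-type transcripts 80.9 to 402.8 CPM (median 152.6), so the variant sum was 11.1 to 53.3 times the replication-type sum. H2AFZ and H3F3B alone held 60.4% of the variant sum averaged over libraries, and H2AFZ was the highest member in 20 of 24 libraries. Per kilobase of the canonical transcript, H2AFZ stood at 1789 CPM per kb, followed by H1FX at 469, H3F3B at 456, H2AFX at 441, H2AFV at 106 and H3F3C at 68.1. H1FX, H3F3B and H2AFX were close in this order, and H1FX was above H2AFX in CPM in only 12 of 24 libraries. The highest replication-type member by this measure was HIST1H1C at 20.1 CPM per kb, and the median over the replication-type members matched was 3.99. Whether the libraries were made from poly(A)-selected RNA is not given in the sources used here.

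On GRCh37, 41 of the 56 members matched lie on chromosome 6 and 5 on chromosome 1, which hold the HIST1 and HIST2 clusters, and the variant genes are scattered. Among the replication-type members, the linker histone genes HIST1H1C (mean 14.7 CPM over 24 libraries) and HIST1H1E (11.4 CPM) were the highest, followed by HIST2H2BC (9.96 CPM, a non-coding RefSeq record), HIST2H2BE (9.06 CPM) and HIST1H2BK (8.45 CPM). These 5 transcripts held 33.3% of the class. A total of 40 of the 50 averaged under 5 CPM and 5 averaged under 10 counts, so most members were measured from few reads. By family the class comprised 4 H1, 12 H2A, 15 H2B, 10 H3 and 9 H4 genes. HIST1H4J and HIST1H4K had nearly equal levels in each library (means 5.25 and 5.37 CPM), and their near-identical sequences mean that reads between them, as between other cluster paralogs, cannot be assigned with certainty.

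The replication-type transcripts moved together from library to library. Their sum was 150.8, 169.9 and 108.8 CPM in shNS Eth replicates 1, 2 and 3, and 283.5, 154.5 and 114.4 CPM in shNS dex. In shG9a cells it was 157.5, 80.9 and 92.2 CPM with Eth and 145.1, 104.9 and 97.4 CPM with dex. In shGLP cells it was 281.1, 159.7 and 109.5 CPM with Eth and 194.4, 193.4 and 111.9 CPM with dex. In shHP1γ cells it was 402.8, 167.4 and 118.5 CPM with Eth and 177.2, 164.3 and 115.6 CPM with dex. Replicate 3 stayed between 92.2 and 118.5 CPM in every group, and 3 libraries of replicate 1 (shHP1γ Eth, shNS dex and shGLP Eth) stood above all other libraries. In 33 of the 50 replication-type transcripts, but in 0 of the 10 variant transcripts, all 3 of these libraries lay above the other 21, and 39 of the 50 were highest in shHP1γ Eth replicate 1. The 3 libraries were singled out by the replication-type sums, so these counts describe the same values and are not a separate result. The share of all transcripts with such a pattern was not counted. The families shared this, and the H3 sum for example was 5.51 to 16.7 CPM in the other 21 libraries and 30.8 to 52.1 CPM in these 3.

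The same 3 libraries were also highest for RPPH1 and RMRP, RNAs that lack a poly(A) tail. RPPH1, the RNA of ribonuclease P, was at 100.2, 79.8 and 31.6 CPM in shHP1γ Eth, shNS dex and shGLP Eth of replicate 1 and at 1.66 to 14.7 CPM in the other 21 libraries. RMRP, the RNA of ribonuclease MRP, was at 47.3, 50.7 and 19.9 CPM there and at 0.947 to 9.02 CPM elsewhere. This did not hold for every such RNA. RN7SL3, an RNA of the signal recognition particle, was at 378.5 and 240.8 CPM in shHP1γ Eth and shNS dex of replicate 1, but at 143.5 CPM in shGLP Eth of replicate 1, below all 8 libraries of replicate 3 (144.6 to 217.0 CPM). A list of RNAs without a poly(A) tail does not include RN7SL3, which alone was at 205.9 CPM in shNS Eth replicate 3, against 64.3 CPM for the list. Summed over its 10 measured transcripts, the list was at 120.2 to 218.7 CPM in these 3 libraries of replicate 1 and 38.6 to 70.1 CPM in the rest. A list of S-phase genes (27 transcripts of 22 genes) was not raised in them, with 3918, 4801 and 5677 CPM against 3264 to 5728 CPM elsewhere. The part of these differences between libraries in the histone comparisons was not tested, and each replication-type result is therefore given with and without the 3 libraries. Without them, 5 replication-type members (HIST1H2AB, HIST1H2BB, HIST1H3A, HIST1H4B and HIST1H4L) no longer passed the filter, which leaves 45.

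**Figure D1:**
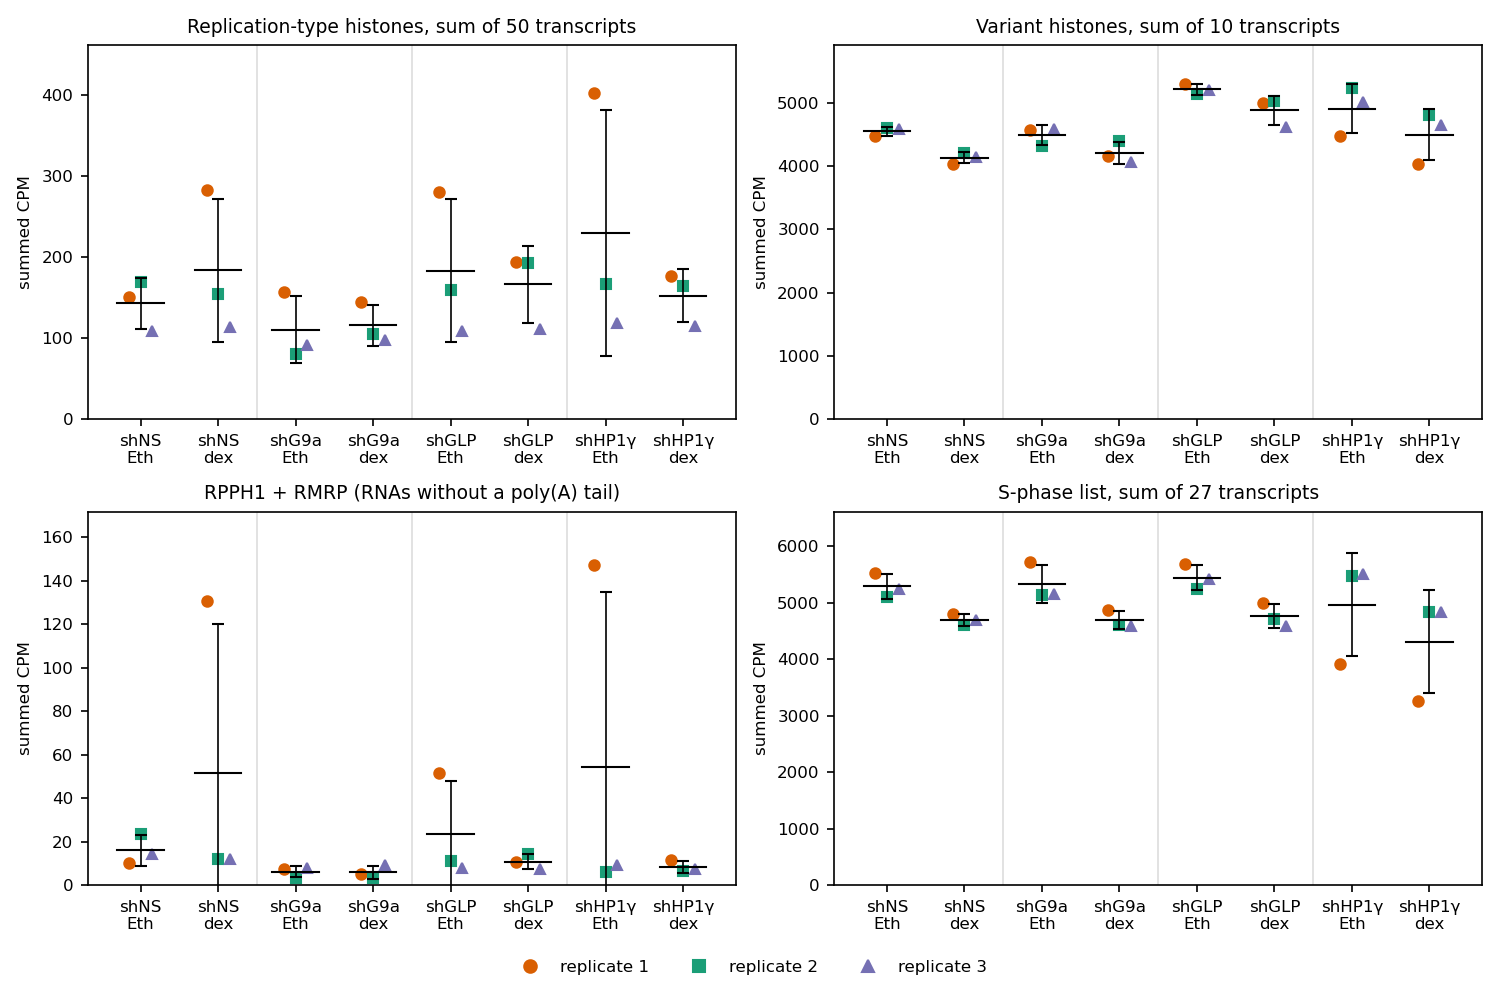
Summed CPM in each library (vertical axes) for the 8 groups (horizontal axes), with symbols for the replicate number, a line at the group mean and bars of 1 SD (cut off at 0). The replication-type sum and the RPPH1 and RMRP sum are highest in the same 3 libraries of replicate 1, while the variant sum stays between 4033 and 5305 CPM.

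**Figure D2:**
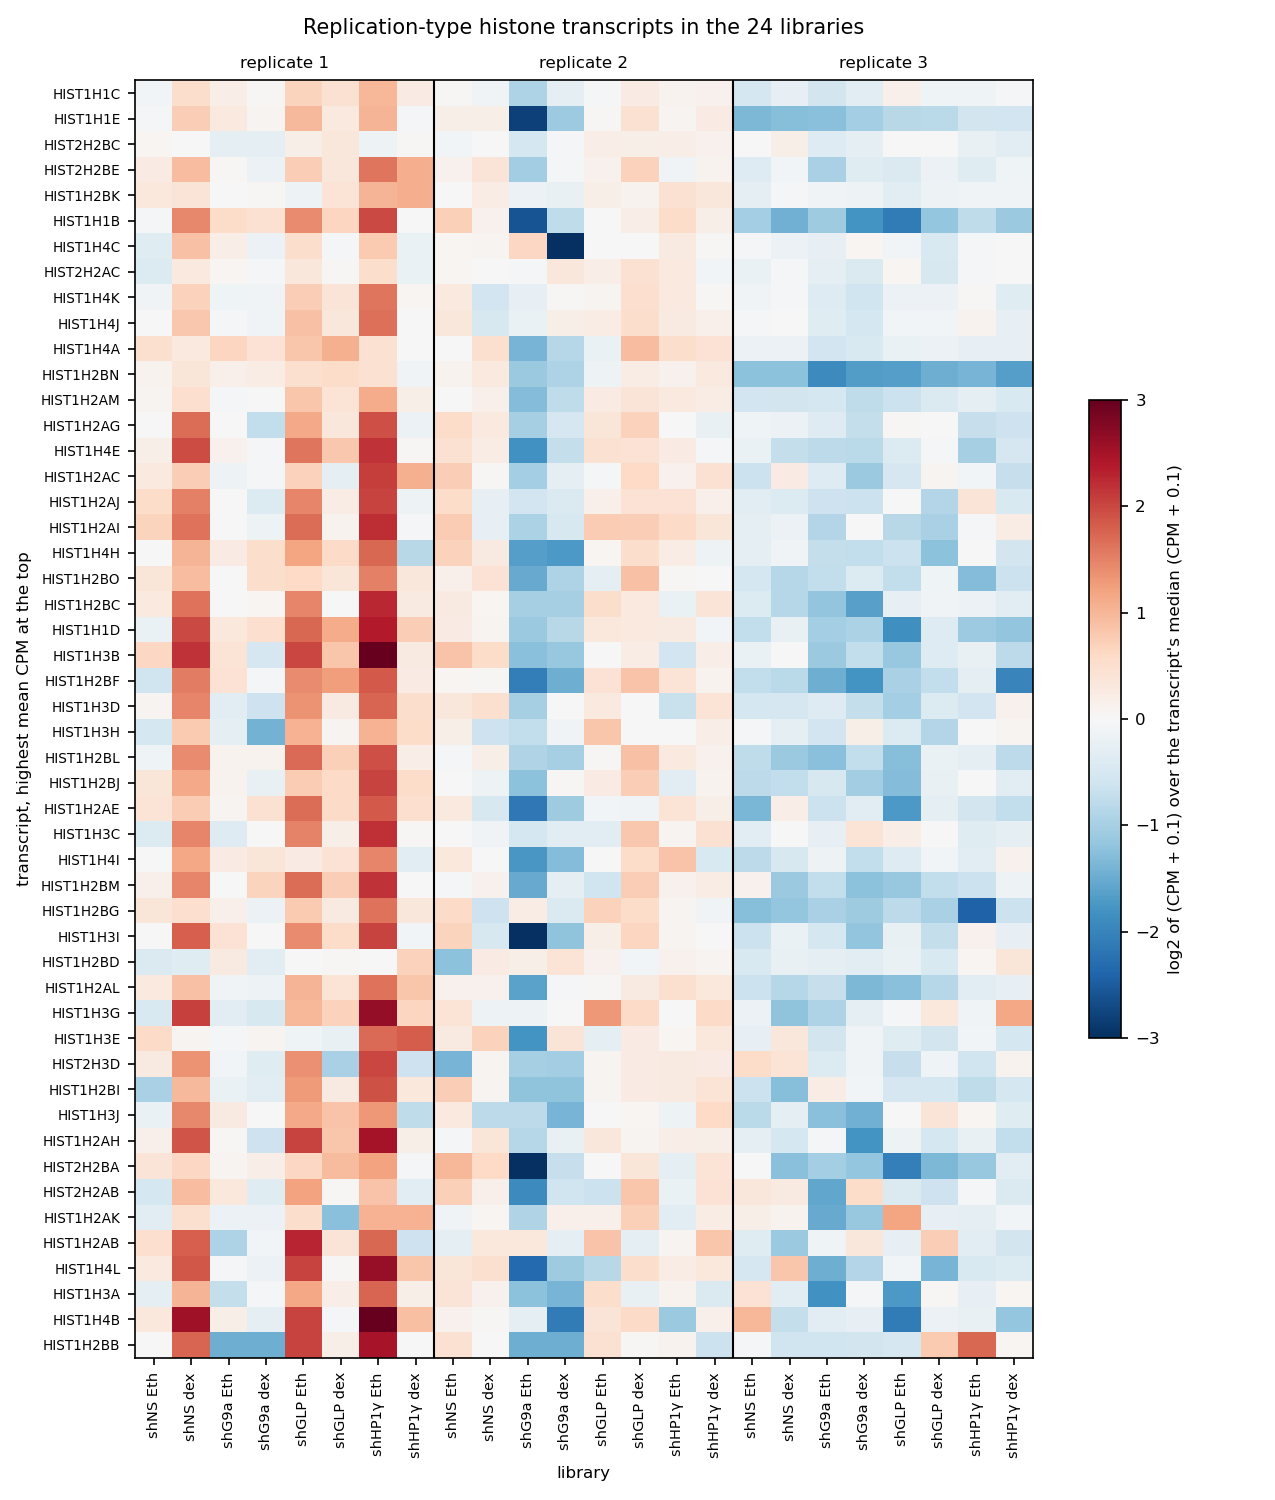
Each of the 50 replication-type transcripts (rows) in the 24 libraries (columns, ordered by replicate number), as log2 of the CPM plus 0.1 over the same for the transcript's median, with colours limited to between −3 and 3. The columns for shNS dex, shGLP Eth and shHP1γ Eth of replicate 1 are red in most rows, and replicate 3 and shG9a replicate 2 are mostly blue.

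Some members departed from this common pattern. HIST2H2BC stayed between 6.97 and 12.8 CPM in all libraries, and in shHP1γ Eth replicate 1 it was at 9.15 CPM, within the range of the others. HIST1H4C, an H4 gene, was at 0.720 CPM in shG9a dex replicate 2 and at 5.22 to 13.3 CPM in the other 23 libraries. In the same library H3F3C, an intron-less copy of H3F3B, was at 29.5 CPM against 69.7 to 92.8 CPM elsewhere, and this was the library with the most counts. In shG9a Eth replicate 2, HIST1H1E was at 1.64 CPM and HIST1H1B at 1.12 CPM, each the lowest of the 24 libraries. HIST1H2BN, singled out after its values were seen, was at 1.32 to 2.21 CPM in replicate 3 and at 2.41 to 7.84 CPM in replicates 1 and 2, with no overlap between replicate 3 and the others.

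The comparison of dex with ethanol in shNS cells asks which transcripts the hormone changes when none of the 3 proteins is depleted. Calls rest on the quasi-likelihood test of edgeR, with p-values adjusted by Benjamini-Hochberg over all 10167 transcripts and a limit of 0.05. In shNS cells 2 of the 60 histone transcripts, H2AFZ and H2AFB2, were called, both lower with dex, while 9.95% of all transcripts tested were called and 5.46% were called lower. No replication-type member was called by this test or by DESeq2, and 3 of 50 had an unadjusted p under 0.05. In several comparisons below DESeq2 gave some low-count members no adjusted p and so could not call them. Of the 50, 48 had a fitted log2 fold change above 0, with a median of 0.32 against −0.03 over all transcripts, and without the 3 libraries 26 of 45 were above 0, with a median of 0.09. The largest fitted change among members with at least 10 counts on average was that of HIST1H1D, a linker histone gene, at 1.03 ± 0.41 (log2, SE; edgeR adjusted p = 0.134). Its levels were 6.63 CPM in the raised dex library and 1.72 and 1.37 CPM in the other dex libraries, against 1.39, 1.93 and 0.935 CPM with Eth.

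Dex changed few histone transcripts in the depleted cells as well. In shG9a cells 1 of 60 was called, H2AFV (lower), with 6.24% of all transcripts called and 2.98% called lower. In shGLP cells 0 of 60 were called by edgeR or DESeq2, with 3.29% of all transcripts called. There 1 of 60 had an unadjusted p under 0.05, against 14.3% of all transcripts. In shHP1γ cells 0 of 60 were called by either tool, with 3.22% of all transcripts called. However, 18 of the 60 (17 of them replication-type) had an unadjusted p under 0.05, against 13.6% of all transcripts. Without the 3 raised libraries 5 of 55 did. In that comparison 46 of 50 replication-type transcripts were below 0, with a median log2 fold change of −0.71, but without the 3 libraries 20 of 45 were above 0 and the median was −0.04. The largest change there among members with at least 10 counts was that of HIST1H3B, an H3 gene, at 11.7, 0.893 and 1.16 CPM with Eth and 1.68, 1.59 and 0.754 CPM with dex (log2 fold change −1.45 ± 0.50, edgeR adjusted p = 0.142). Only the library of replicate 1 set the Eth group apart. In shG9a cells the replication-type median was 0.11 and in shGLP cells −0.15, which became 0.16 without the 3 libraries. The largest changes were those of HIST1H3E in shG9a cells (0.89 ± 0.51, edgeR adjusted p = 0.344) and HIST1H3H in shGLP cells (−0.83 ± 0.40, edgeR adjusted p = 0.357), neither of which was called.

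H2AFZ encodes H2A.Z, the H2A variant that marks nucleosomes beside transcription start sites, and its gene lies at chr4:100869245-100871432 (GRCh37, minus strand). In shNS cells it was at 1446, 1426 and 1479 CPM with Eth and at 1059, 1122 and 1082 CPM with dex. These groups did not overlap, and dex lowered H2AFZ by 0.42 ± 0.11 on the log2 scale (fitted log2 fold change −0.42, edgeR adjusted p = 0.0122), to 0.750 of the Eth level. In shG9a cells it was at 1570, 1534 and 1831 CPM with Eth and at 1342, 1415 and 1386 CPM with dex. In shGLP cells it was at 1907, 1836 and 1934 CPM with Eth and at 1689, 1676 and 1553 CPM with dex. In shHP1γ cells it was at 1398, 1985 and 2006 CPM with Eth and at 1120, 1707 and 1675 CPM with dex. Every same-numbered pair was thus lower with dex, in all 4 populations. Within each depleted population the change was not called (log2 fold changes −0.25, −0.21 and −0.26, each with SE 0.11), and no interaction of dex with a hairpin was called for it. A contrast chosen after the data were seen, the mean dex effect over the 4 populations, gave −0.28 ± 0.05 (edgeR adjusted p = 3.23e-04) and was called in all 33 alternative fits, with 23.8% of all transcripts called in this contrast. The call within shNS cells was lost without shNS Eth replicate 1 (adjusted p = 0.0871), shNS dex replicate 3 (0.0849), replicate number 2 (0.0523) or 3 (0.199) in all groups, or the replicate block (0.0588), with edgeR in each case.

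**Figure D3:**
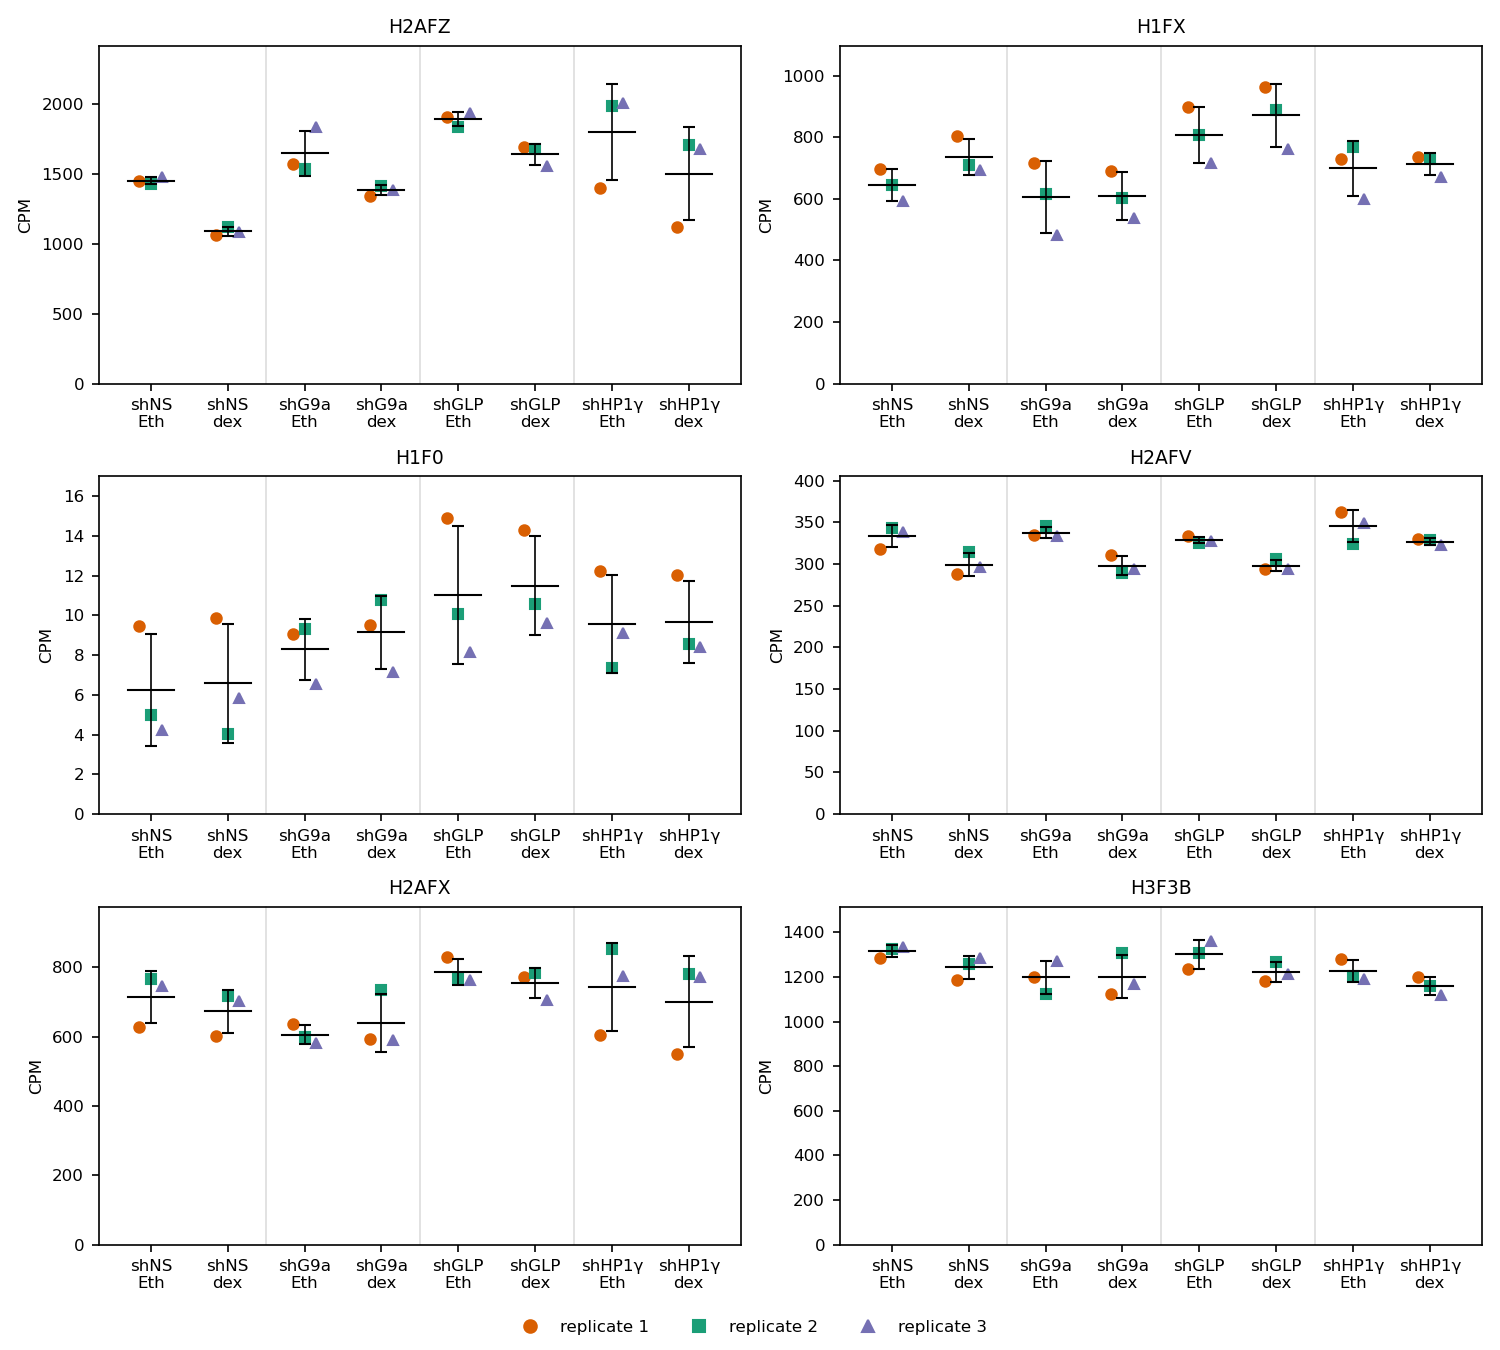
CPM of 6 variant histone transcripts (vertical axes) in the 8 groups (horizontal axes), with symbols for the replicate number, a line at the group mean and bars of 1 SD (n = 3). H2AFZ is lower with dex in every same-numbered pair, H1FX is highest in the shGLP groups, and H3F3B stays between 1120 and 1364 CPM.

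In dex-treated cells H2AFZ was higher in each depleted population than in shNS cells. The difference was 0.59 ± 0.11 in shGLP (edgeR adjusted p = 7.71e-04), 0.45 ± 0.11 in shHP1γ (edgeR adjusted p = 0.0140) and 0.34 ± 0.11 in shG9a cells (edgeR adjusted p = 0.0456), all as log2 fold changes and higher in 3 of 3 pairs. The shNS dex libraries are shared by these comparisons. With Eth the difference was called in shGLP cells (0.38 ± 0.11, edgeR adjusted p = 0.0435) and not in shHP1γ (0.30 ± 0.11) or shG9a cells (0.18 ± 0.11). In shHP1γ cells replicate 1 was the lowest of its group with either treatment, and the S-phase list was lowest there too, at 3918 CPM with Eth and 3264 CPM with dex against 4593 to 5728 CPM in the other 22 libraries, and the part of this in the H2AFZ level was not tested. Of these calls, that of shGLP in dex was kept in all 15 alternatives. That of shHP1γ in dex was lost without shNS dex replicate 2 or 3 and without shHP1γ dex replicate 2 or 3 (edgeR adjusted p from 0.0646 to 0.116). That of shG9a in dex was lost without any 1 of its 6 libraries (edgeR adjusted p from 0.0531 to 0.164), and that of shGLP with Eth likewise (edgeR adjusted p from 0.0628 to 0.247). Without the replicate block the last 3 of these calls were lost too (edgeR adjusted p = 0.0649, 0.155 and 0.183). Over all 15 alternatives these 3 calls were lost in 7, 10 and 10. In the fits with a replicate number or libraries left out, their edgeR adjusted p reached 0.326, 0.228 and 0.417.

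The comparison of shG9a with shNS cells under dex asks which transcripts depend on G9a when the hormone is present, and it held more histone calls than any other of the 13 comparisons. In it 8 of 60 histone transcripts were called, 2 higher and 6 lower, with 8.80% of all transcripts called. H2AFZ and H2AFB2 were higher, as were 4.38% of all transcripts. H1FX and 5 replication-type members were lower, namely the H2A genes HIST1H2AG and HIST1H2AH, the H2B gene HIST1H2BF, the H3 gene HIST1H3B and the H4 gene HIST1H4L. Lower calls made up 4.43% of all transcripts and 5 of the 50 replication-type members. In the class 49 of 50 were below 0, with a median of −0.73, and DESeq2 called 1. An unadjusted p under 0.05 was held by 21 of the 50 (5 of 45 without the 3 raised libraries), against 23.2% of all transcripts. Without the replicate block, none of these 5 members was called (edgeR adjusted p from 0.147 to 0.336), nor was H1FX (0.292) or H2AFZ, and H2AFB2 was the 1 histone transcript left of the 8. Without the filter on low counts 23 were called. HIST1H3B was at 0.951, 0.576 and 0.787 CPM in shG9a dex and at 6.54, 2.06 and 1.37 CPM in shNS dex (log2 fold change −1.99 ± 0.56, edgeR adjusted p = 0.0268). HIST1H2AG was at 1.47, 1.73 and 1.49 CPM against 8.19, 3.10 and 2.18 CPM (−1.41 ± 0.42, edgeR adjusted p = 0.0366). HIST1H2BF was at 1.73, 0.576 and 0.437 CPM against 5.34, 1.81 and 0.970 CPM (−1.53 ± 0.42, edgeR adjusted p = 0.0247). HIST1H3B and HIST1H2AG did not overlap between the groups, whereas HIST1H2BF did, although each pair was lower. HIST1H2AH was at 0.519, 0.720 and 0.175 CPM against 3.41, 1.12 and 0.566 CPM (−1.67 ± 0.51, edgeR adjusted p = 0.0433). HIST1H4L was at 0.346, 0.144 and 0.175 CPM against 1.75, 0.602 and 0.808 CPM (−2.23 ± 0.63, edgeR adjusted p = 0.0296), without overlap and from the fewest reads of the 5. It was above 1 CPM only in the 3 raised libraries of replicate 1, of which shNS dex is in this comparison. HIST1H4L thus passed the filter only through them and was not tested in the fit without them.

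The 5 replication-type calls under dex were lost when the raised shNS dex library alone was left out, and also with several other omissions. Without that 1 library the edgeR adjusted p was 0.259 for HIST1H2AG, 0.267 for HIST1H2AH, 0.194 for HIST1H2BF, 0.131 for HIST1H3B and 0.0617 for HIST1H4L, and without the 3 libraries 1 of 45 replication-type members, HIST1H3B, was called, with 5.75% of all transcripts called in that fit. All 5 were also lost without replicate number 2 or 3 in all groups and without shG9a dex replicate 1, 4 of them without shNS dex replicate 2 and 4 without shG9a dex replicate 2, 3 without shNS dex replicate 3 and 1 without shG9a dex replicate 3 (edgeR adjusted p from 0.0507 to 0.244). DESeq2 gave no adjusted p for 5 of the 8 histone calls. Without the 3 libraries the class median was −0.45 and 8 of 45 were above 0. With Eth, a comparison that holds none of the 3 libraries, 47 of 50 replication-type transcripts were below 0 in shG9a against shNS cells. Their median was −0.56 (−0.53 for 45 without the 3 libraries). In that comparison 0 of 60 histone transcripts were called by edgeR or DESeq2, with 3.73% of all transcripts called. Of the 60, 10 had an unadjusted p under 0.05 (15 of 55 without the 3 libraries), against 15.2% of all transcripts. The largest change there was that of HIST2H2BA, a pseudogene transcript, at 1.17, 0 and 0.497 CPM against 1.48, 2.30 and 1.11 CPM (−1.61 ± 0.57, edgeR adjusted p = 0.142). The list of RNAs without a poly(A) tail had medians of −0.69 with dex and −0.27 with Eth in the same comparisons, with RMRP called lower under dex (−2.82 ± 0.77, edgeR adjusted p = 0.0229), and its part in the histone values was not tested.

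H1FX, the linker histone variant H1.X, was lower with the hairpin against G9a under dex and higher with that against GLP under both treatments. Its gene lies at chr3:129033614-129035129 (GRCh37, minus strand). It was at 696, 644 and 591 CPM in shNS Eth and at 804, 710 and 693 CPM in shNS dex. In shG9a cells it was at 715, 616 and 484 CPM with Eth and at 691, 602 and 536 CPM with dex. In shGLP cells it was at 898, 807 and 714 CPM with Eth and at 963, 889 and 761 CPM with dex. In shHP1γ cells it was at 729, 769 and 598 CPM with Eth and at 736, 730 and 672 CPM with dex. Under dex shG9a cells lay below shNS cells without overlap (−0.28 ± 0.07, edgeR adjusted p = 0.00889, lower in 3 of 3 pairs). The shGLP cells lay above shNS cells with Eth, again without overlap (0.32 ± 0.07, edgeR adjusted p = 0.00350), and under dex, where the groups overlapped but each pair was higher (0.24 ± 0.07, edgeR adjusted p = 0.0289). Compared directly, in contrasts chosen after the data were seen, H1FX was higher in shGLP than in shG9a cells by 0.52 ± 0.07 under dex (edgeR adjusted p = 1.36e-05) and by 0.42 ± 0.07 with Eth (edgeR adjusted p = 1.72e-04). The dex contrast held in all 15 alternatives and the Eth contrast in 14, all but the fit without the replicate block (edgeR adjusted p = 0.0949). The call of shG9a against shNS was lost without shNS dex replicate 3 (edgeR adjusted p = 0.0792), replicate number 2 (0.0551) or 3 (0.162) in all groups, or the replicate block (0.292). That of shGLP with Eth was lost without replicate number 3 (edgeR adjusted p = 0.0551) or the block (0.353). That of shGLP under dex was lost in 11 of the 15 alternatives. These include the fits without any 1 replicate number, without the block (edgeR adjusted p = 0.496), and without shNS dex replicate 1 or 2 or any 1 shGLP dex library (edgeR adjusted p from 0.0706 to 0.184). With dex H1FX was higher in 3 of 3 shNS pairs (0.19 ± 0.07), which was not called by edgeR (adjusted p = 0.0640). H1FX-AS1, a non-coding transcript antisense to H1FX (chr3:129034363-129043390, plus strand) that the symbol rule also took in, was at 1.90 to 6.20 CPM, and without a stated strand its reads cannot be told from those of H1FX.

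H1F0, which encodes the linker histone H1.0 found in non-dividing and differentiating cells, was low (chr22:38201236-38203439 on GRCh37, plus strand). It was at 9.47, 4.97 and 4.25 CPM in shNS Eth and at 14.9, 10.1 and 8.14 CPM in shGLP Eth. Under dex it was at 9.85, 4.04 and 5.82 CPM in shNS and at 14.3, 10.6 and 9.61 CPM in shGLP cells. The groups overlapped, since replicate 1 was highest in shNS cells, but each pair was higher in shGLP cells, by 0.83 ± 0.20 under dex (edgeR adjusted p = 0.0110) and 0.83 ± 0.20 with Eth (edgeR adjusted p = 0.0159), or 1.78-fold in both. In shG9a and shHP1γ cells the fitted log2 differences from shNS were 0.45 to 0.65 and were not called. The shGLP call was lost under dex without shNS dex replicate 2 (edgeR adjusted p = 0.109), replicate number 2 (0.0700) or 3 (0.178) in all groups, or the replicate block (0.231). With Eth it was lost without replicate number 3 (edgeR adjusted p = 0.348), the block (0.320) or the 3 raised libraries (0.131), and without shGLP Eth replicate 1 or 2 or without shNS Eth replicate 2 or 3 (edgeR adjusted p from 0.0590 to 0.115). Some markers of other cell types moved with the same hairpin. Of 14 such genes 3 were measured above the filter, and LYZ, a myeloid gene, was called higher in shGLP cells under dex (3.22 ± 0.32, edgeR adjusted p = 5.94e-07) and with Eth (2.71 ± 0.30, edgeR adjusted p = 3.21e-06), as was COL1A1. COL1A1 was also called higher in shHP1γ than in shNS cells under dex (0.95, edgeR adjusted p = 0.0269) and with Eth (0.97, edgeR adjusted p = 0.0206). The summed level of the 3 markers was 30.7 to 36.0 CPM in shGLP Eth, 22.9 to 32.5 CPM in shGLP dex and 4.30 to 15.2 CPM in the other 18 libraries. CD3D, CD2, CSF1R, KRT8 and KRT18 were at 0, and the part of these markers in the histone differences was not tested.

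In all, shGLP cells differed from shNS cells in 4 of 60 histone transcripts under dex (H2AFZ, H1FX, H1F0 and H2AFB2), with 5.77% of all transcripts called and 3.31% called higher. With Eth they differed in 3 (H2AFZ, H1FX and H1F0), with 3.61% called and 1.93% called higher. Each of these was a variant and higher in shGLP cells. No replication-type member was called in either comparison by edgeR or DESeq2. Of the 50, 1 under dex and 6 with Eth had an unadjusted p under 0.05, against 16.5% and 13.1% of all transcripts. The class median was −0.16 under dex and 0.36 with Eth, and without the 3 libraries 0.21 and 0.02. The largest change among members with at least 10 counts was that of HIST2H3D under dex (−0.86 ± 0.55, edgeR adjusted p = 0.490) and of HIST1H2AH with Eth (1.07 ± 0.47, edgeR adjusted p = 0.313). In shHP1γ cells 1 of 60 was called under dex, H2AFZ (higher), with 4.09% of all transcripts called and 2.55% called higher. With Eth 0 of 60 were called by either tool, with 2.91% of all transcripts called. There 22 of 60 had an unadjusted p under 0.05 (4 of 55 without the 3 libraries), against 14.4% of all transcripts. With Eth 47 of 50 replication-type transcripts were above 0, with a median of 0.72, and without the 3 libraries 28 of 45 with a median of 0.12. Under dex 40 of 50 were below 0, with a median of −0.36, and without the 3 libraries the median was 0.05. HIST1H3G had the largest change with Eth (1.40 ± 0.61, edgeR adjusted p = 0.277), at 5.97, 0.893 and 0.803 CPM against 0.608, 1.20 and 0.765 CPM in shNS cells, so that only replicate 1 was raised. HIST1H3B had the largest under dex (−1.16 ± 0.51, edgeR adjusted p = 0.254).

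**Figure D4:**
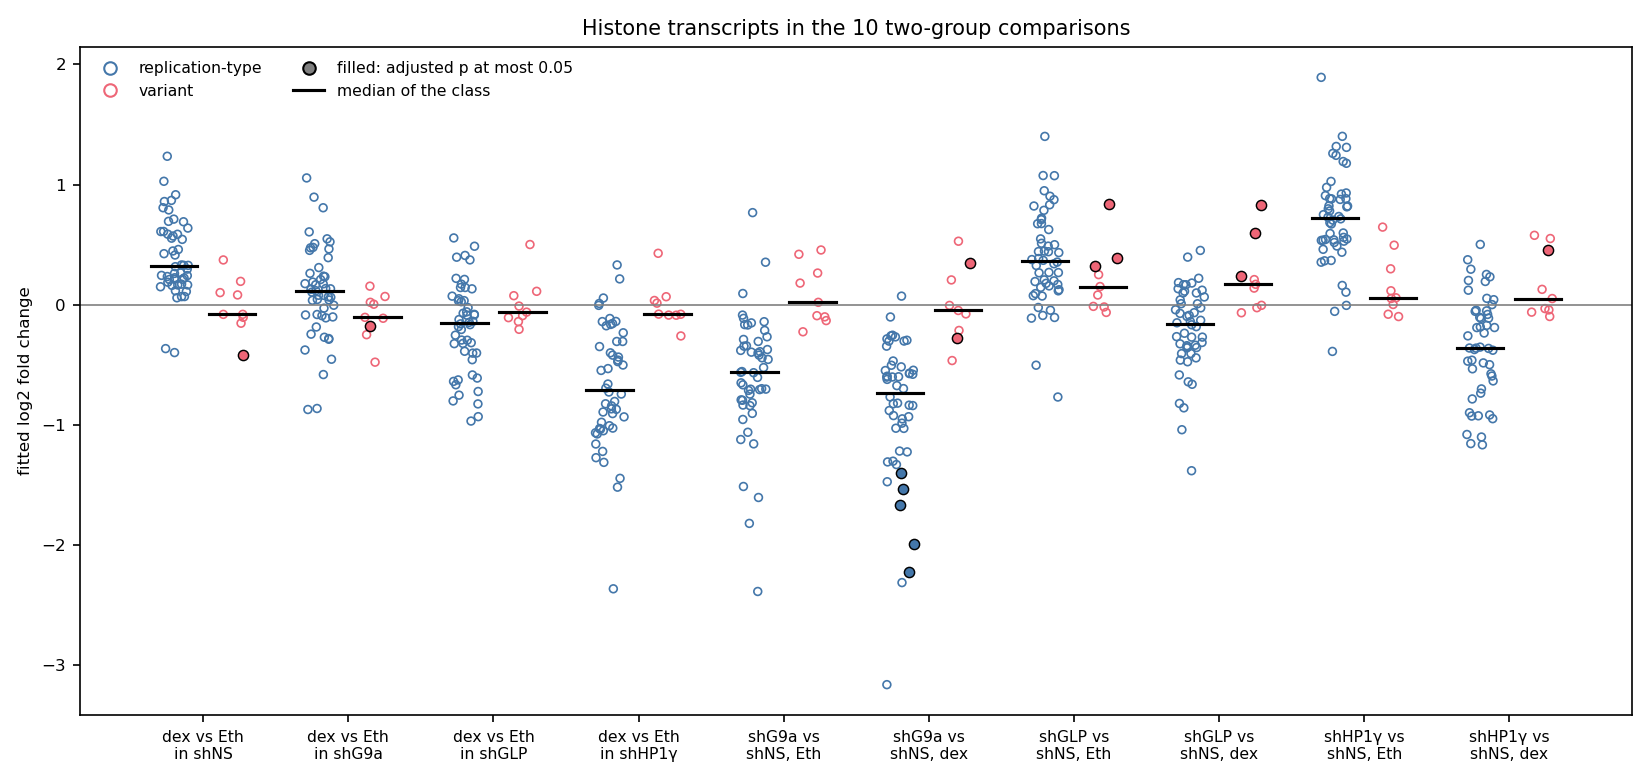
Fitted log2 fold change (vertical axis) of 59 histone transcripts in the 10 pairwise comparisons (horizontal axis), with filled points for calls (limit 0.05 on the adjusted p) and a line at the median of each class. H2AFB2, which had 0 counts in shNS dex, is left out. The replication-type points move as a block, from a median of −0.73 for shG9a against shNS under dex to 0.72 for shHP1γ against shNS with Eth. The medians over all 10 variants, H2AFB2 included, lie between −0.08 and 0.19, while the variant lines drawn leave H2AFB2 out.

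Whether a hairpin alters the response to dex is asked by the interaction of dex with each hairpin. No histone transcript was called for any of the 3 interactions by edgeR or DESeq2. For shG9a, shGLP and shHP1γ, 2, 3 and 20 of the 60 had an unadjusted p under 0.05, against 6.75%, 3.89% and 3.81% of all transcripts. Without the 3 raised libraries 1, 1 and 2 of 55 did. The shares of all transcripts called were 0.0885%, 0.118% and 0.0197%. The replication-type medians were −0.20, −0.60 and −1.04, and without the 3 libraries 0.08, 0.26 and −0.03. HIST1H2AH had the largest fitted interaction among members with at least 10 counts in all 3, at −1.50 ± 0.76, −1.72 ± 0.66 and −2.23 ± 0.66. DESeq2 gave it no adjusted p in any of the 3, so only edgeR could have called it. It was at 0.956, 0.829 and 0.680 CPM in shNS Eth and at 3.41, 1.12 and 0.566 CPM in shNS dex, and in shHP1γ cells at 5.25, 0.992 and 0.713 CPM with Eth and 0.975, 0.986 and 0.471 CPM with dex. The highest value of each pair of groups was a library of replicate 1.

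When shGLP and shG9a cells were compared directly, again in contrasts chosen after the data were seen, 2 of 60 histone transcripts were called under dex and 4 with Eth, each higher in shGLP cells. The shares of all transcripts were 8.62% called and 4.81% called higher under dex, and 6.23% and 3.84% with Eth. Under dex these were H1FX and HIST1H2BF, the latter at 4.34, 3.26 and 1.03 CPM in shGLP against 1.73, 0.576 and 0.437 CPM in shG9a cells (1.70 ± 0.42, edgeR adjusted p = 0.0128). Neither group is among the 3 raised libraries, and the call stood without those (1.67, edgeR adjusted p = 0.0165), but not without shG9a dex replicate 2 (edgeR adjusted p = 0.0713), shGLP dex replicate 2 (0.0971), replicate number 2 (0.134) or 3 (0.102) in all groups, or the replicate block (0.304). Without the 3 libraries HIST1H2AG (1.05, edgeR adjusted p = 0.0119) and the H2B gene HIST1H2BL (1.08, edgeR adjusted p = 0.0314) were called as well. The class median was 0.59 under dex, with 48 of 50 above 0, and 0.56 without the 3 libraries, with 43 of 45 above 0. Of the 7 B-cell marker transcripts tested, 3 were also called higher in shGLP than in shG9a cells under dex, of CD79A (1.37), MME (0.90) and IGLL1 (0.72). The MME call was for a transcript at 3.13 CPM on average and not for its main one at 19.7 CPM. RAG1 and RAG2 were not called, and the part of these markers in the histone differences was not tested. With Eth the called histone transcripts were H1FX, H2AFX, HIST1H1C and HIST2H2BC. H2AFX, whose product is phosphorylated at DNA breaks, was at 830, 766 and 762 CPM in shGLP Eth and at 637, 600 and 581 CPM in shG9a Eth (0.38 ± 0.10, edgeR adjusted p = 0.0273). HIST1H1C was at 22.4, 13.6 and 15.4 CPM against 16.1, 7.32 and 9.52 CPM (0.66 ± 0.18, edgeR adjusted p = 0.0229). HIST2H2BC was at 11.5, 11.6 and 10.0 CPM against 8.39, 6.97 and 7.78 CPM (0.52 ± 0.14, edgeR adjusted p = 0.0229), without overlap. Without the 3 libraries, which include shGLP Eth replicate 1, only H1FX was called (0.41, edgeR adjusted p = 0.00232), with edgeR adjusted p of 0.182 for H2AFX, 0.109 for HIST1H1C and 0.0823 for HIST2H2BC. Each of these 3 was also lost without shGLP Eth replicate 1, shG9a Eth replicate 2 or shGLP Eth replicate 3, H2AFX and HIST1H1C without shG9a Eth replicate 3, and HIST2H2BC without shGLP Eth replicate 2 (edgeR adjusted p from 0.0539 to 0.255). Without the replicate block none of these 3 was called (edgeR adjusted p = 0.146, 0.332 and 0.0581). Over 15 alternatives H2AFX, HIST1H1C and HIST2H2BC were lost in 8, 8 and 10. With a replicate number or libraries left out, their edgeR adjusted p reached 0.270, 0.302 and 0.216.

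The remaining variants differed little between groups. H2AFV, the other gene for H2A.Z (chr7:44871577-44887686 on GRCh37, minus strand), was lower with dex in shG9a cells, at 310, 289 and 294 CPM against 334, 346 and 333 CPM with Eth (−0.18 ± 0.05, edgeR adjusted p = 0.0396), without overlap. The call was lost under TMM scaling (edgeR adjusted p = 0.0581) and without 5 of its 6 libraries, all but shG9a dex replicate 1 (edgeR adjusted p from 0.0828 to 0.177), and without the replicate block (0.113). In all it was lost in 11 of 15 alternatives, with edgeR adjusted p up to 0.374 when a replicate number or libraries were left out. Over the 4 populations the mean dex effect on H2AFV was −0.14 ± 0.03 (edgeR adjusted p = 2.89e-04, or 0.0740 without replicate number 3). H1FX was called higher in that contrast (0.09 ± 0.03, edgeR adjusted p = 0.0492), but in only 10 of 33 alternatives. Without the 3 libraries 1 replication-type transcript, HIST2H2BE, was called in that contrast (0.39 ± 0.12, edgeR adjusted p = 0.0240). With all libraries none was called by edgeR or DESeq2, and 1 of 50 had an unadjusted p under 0.05, against 34.0% of all transcripts. H3F3B, an H3.3 gene, stayed between 1120 and 1364 CPM and was called in no comparison, and its fitted log2 fold changes in the 13 comparisons were −0.13 to 0.08. H2AFX was called in none of the 13, at 548 to 852 CPM. H2AFY, the macroH2A1 gene, was at 3.57 to 6.45 CPM for the only isoform that passed the filter and was not called. H3F3C was not called either, and its largest changes, −0.48 ± 0.18 for dex in shG9a cells and −0.47 ± 0.18 for shG9a under dex, hold the low library shG9a dex replicate 2. It is nearly identical to H3F3B, so reads could be shared between them.

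H2AFB2, an X-linked short H2A variant best known from the testis, was near the limit of detection. It had 0 counts in each shNS dex library, 12, 4 and 4 in shNS Eth, 12, 8 and 18 in shG9a dex and 12, 4 and 5 in shGLP dex. Relative to a floor of 3 counts over the shNS dex group, its pooled level was 6.74-fold in shNS Eth, 11.9-fold in shG9a dex and 7.82-fold in shGLP dex. It was called by edgeR in these comparisons (adjusted p = 0.0272, 0.00535 and 0.0289). Its count was a multiple of 4 in 21 of the 24 libraries, so a floor of 3 counts lies below the usual step. The folds are therefore not lower bounds, and the edgeR p-values take the counts as independent. The copies H2AFB1 and H2AFB3 of H2AFB2 were at 0 throughout, so its reads could come from any of the 3 genes. Leaving out any 1 shNS dex library ended the dex call in shNS cells and the shGLP call (edgeR adjusted p from 0.0718 to 0.115), as did leaving out shNS Eth replicate 1 (edgeR adjusted p = 0.133) for the former and shGLP dex replicate 1 (edgeR adjusted p = 0.136) or 3 (edgeR adjusted p = 0.0525) for the latter. Over the alternatives the dex call was lost in 8 of 14 and the shGLP call in 9 of 13. Their edgeR adjusted p reached 0.255 and 0.269 in the fits with a replicate number or libraries left out. The shG9a call held without any 1 of its libraries and without the replicate block, but not without replicate number 3 in all groups (edgeR adjusted p = 0.0822).

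Genes that act on histone mRNA or histone proteins were examined from lists. Of 25 genes for histone mRNA transcription and 3′ processing 10 were tested, while SLBP and CCNE1 were listed at 0. The most regular change was that of MBLAC1, a nuclease that processes replication-type histone pre-mRNA, which was called higher with dex in shG9a (0.57 ± 0.14, edgeR adjusted p = 0.0179), shGLP (0.69 ± 0.15, edgeR adjusted p = 0.00734) and shHP1γ cells (0.69 ± 0.14, edgeR adjusted p = 0.00440) and not in shNS cells. A difference of the dex effect between hairpins was not called for it. CCNE2, a cyclin of the G1 to S transition, was the only one of the 10 called with dex in shNS cells (0.38 ± 0.08, edgeR adjusted p = 0.00323), where 9.95% of all transcripts were called. Under dex it was lower in shGLP (−0.35, edgeR adjusted p = 0.0105) and shHP1γ cells (−0.53, edgeR adjusted p = 3.79e-04) than in shNS cells. SYMPK, a scaffold of the histone cleavage complex, was lower in shG9a cells under dex (−0.20, edgeR adjusted p = 0.0166). Each of these calls was 1 of 10 in its comparison, with 3.22% to 9.95% of all transcripts called. No list member was called in the 3 comparisons with Eth or in the interactions by edgeR.

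Of 33 histone chaperone and exchange genes 24 were tested, as 28 transcripts. With dex in shNS cells 4 transcripts were lower and 0 higher, against 5.46% and 4.49% of all transcripts. They were SET (−0.31 ± 0.07), the H3.3 chaperone HIRA (−0.21 ± 0.05), the H3-H4 chaperone ASF1A (−0.23 ± 0.05) and the FACT subunit SUPT16H (−0.20 ± 0.06), with edgeR adjusted p from 0.00317 to 0.0462. The list's median log2 fold change was −0.13. In each depleted population 1 list member was called lower with dex, namely NAP1L1 in shG9a, SUPT16H in shGLP and SET in shHP1γ cells, that is 1 of 28 each where 6.24%, 3.29% and 3.22% of all transcripts were called in either direction, with medians of −0.07, −0.08 and −0.13. Over the 4 populations 10 of the 28 were called lower and 1 higher in the mean dex effect, against 13.4% and 10.3% of all transcripts, and in the S-phase list 8 of 27 were lower and 2 higher.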

How the data were processed

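RNA-seq was made from total RNA of 24 Nalm6 samples (75 bp paired-end reads). Per their methods, the authors used HISAT2 to align reads to hg19 and GenomicAlignments to count reads on RefSeq genes, and the features of the table are RefSeq accessions. The deposited table is named as CPM, but its values are whole counts per accession, before the authors' normalisation. Counting mode, strand setting and RefSeq release are not given in the sources used here. The deposited fold changes and p-values of the authors' own comparisons were not used, apart from the symbols beside them.

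Groups came from the sample labels. Transcripts above 1 CPM in at least 2 libraries were kept (10167 of 64519), and printed CPM are counts per 1000000 counts of the transcripts kept, after upper quartile scaling. One edgeR quasi-likelihood model (edgeR 4.0.16, R 4.3.3) held all 24 libraries, the 8 groups and the replicate number as a block, with 13 comparisons. The authors also removed unwanted variation by RUV, which was not done here. Replicates are stated to be biological and done on different days. That 1 number marks 1 day in all groups is assumed from the numbering and not stated, and deviations of same-numbered libraries correlated at −0.00249 to 0.639 over 84 pairs (median 0.200). Fitted values are log2 fold changes ± SE. Alternatives were TMM scaling, DESeq2 1.42.0, no filter, at least 5 CPM on average, no block, and each replicate number or library left out. Leaving out the 3 raised libraries, leaving out shG9a dex replicate 2, and 3 further contrasts were chosen after the data were seen. Named members are the 5 with the highest mean CPM in each class, those called, the one with the largest fitted change among members with at least 10 counts on average in each comparison, and the main variant genes. HIST1H2BL, HIST1H2BN, HIST1H4C, HIST1H4J, HIST1H4K, HIST1H1B and H3F3C were singled out after their values were seen. Members and gene lists were chosen with earlier results of these data known. The scripts were tested on simulated data.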

Additional observations from a re-analysis of the deposited data

How the results depend on the processing

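All values here are numbers of histone transcripts called of 60, in the order dex against Eth in shNS, shG9a, shGLP and shHP1γ cells, then shG9a, shGLP and shHP1γ against shNS under dex, then the same with Eth. The fit described gave 2, 1, 0, 0, 8, 4, 1, 0, 3 and 0. Without the replicate block, that is without pairing by replicate number, these became 1, 0, 0, 0, 1, 1, 0, 0, 0 and 0. Without the filter on low counts there were 3 for dex in shG9a, 17 for dex in shHP1γ, 23, 7 for shG9a and shHP1γ under dex, and 4 and 7 for shG9a and shHP1γ with Eth, and the interactions with shG9a, shGLP and shHP1γ held 2, 1 and 8. For shG9a under dex DESeq2 called 3 and the limit of 5 CPM left 2. TMM scaling left 0 for dex in shG9a cells. Over these 10 comparisons the share of all transcripts called was 2.91% to 9.95% in the fit described, 0.649% to 5.09% without the block, 1.30% to 3.90% of 24375 without the filter (1.53% for dex in shHP1γ and 3.42% for shG9a under dex), 3.56% to 9.44% by DESeq2 and 5.51% to 17.4% of 5605 above 5 CPM. For the interactions without the filter it was 0.0944% to 0.258%. Without the 3 raised libraries there was 1 for dex in shNS, 0 for dex in shG9a, 3 for shG9a and 2 for shGLP under dex, and 1 for shGLP with Eth. With 1 replicate number or library left out, the lowest and highest were 0 to 4 for dex in shNS, 0 to 3 in shG9a and 0 to 4 in shHP1γ cells, 0 to 9, 1 to 4 and 0 to 1 under dex, and 0 to 2, 0 to 3 and 0 to 3 with Eth. No fitted change of a called member reversed its direction under these alternatives. The summed replication-type level had a median of 152.6 CPM over libraries, 153.2 with TMM and 153.8 with DESeq2 factors. Among all transcripts called for dex in shNS cells, 45.2% were higher, and 56.5% under TMM scaling. The causes of these changes were not tested. Most replication-type members held few counts, which limits what their tests can show.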
